A study of Mus musculus with 12 samples.

Results

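Oxidative phosphorylation genes were followed in livers of C57BL/6J mice exposed to low-dose cadmium (LDC) from early life. They were taken as the genes whose symbol on the platform starts with Ndufa, Ndufb, Ndufc, Ndufs, Ndufv, Sdha, Sdhb, Sdhc, Sdhd, Uqcr, Cox4i, Cox5, Cox6, Cox7, Cox8 or Atp5, each given by the probe set that is annotated to that gene alone and has the highest mean. This gave 94 genes of the 18193 genes named on the arrays. They hold 34 subunits of complex I, 4 of complex II, 8 of complex III, 17 of complex IV and 17 of complex V. The symbols also take in 8 complex I assembly factors (Ndufaf genes) and 4 complex II assembly factors (Sdhaf genes), which are not subunits, and 2 other genes, Cox7a2l and Ndufa4l2. Another 8 genes with such symbols, Ndufs6 and Ndufa11 among them, had only probe sets shared with other genes and were not analysed here.

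Liver RNA of 30-week-old mice was hybridised to 12 Affymetrix arrays, 3 for each of LDC males, control males, LDC females and control females. LDC was 100 nM cadmium chloride in the drinking water, given to the dams from 1 week before mating and then to the weaned offspring until 30 weeks of age, and control mice received water alone. By their labels the 3 arrays of each group are biological replicates, and litters are not given, so the p-values treat the mice as independent. The deposited values are MAS 5.0 signals, a linear intensity per probe set, and the number of arrays limits the precision.

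Oxidative phosphorylation takes place in the inner mitochondrial membrane. Complexes I and II pass electrons from NADH and succinate to ubiquinone, complex III passes them on to cytochrome c, and complex IV hands them to oxygen. Complexes I, III and IV pump protons, and complex V, the ATP synthase, uses the gradient to make ATP. Most subunits are encoded in the nucleus, and in hepatocytes the system powers gluconeogenesis and urea synthesis. The subunits encoded in the mitochondrial genome were not analysed here.

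The promoters of these genes are known for sites of the factor NRF1 (nuclear respiratory factor), of ETS family proteins such as GABPA, and of YY1. Promoters of 78 of the 94 genes were matched by gene ID to RefSeq sequences of GRCm38.p6. The NRF1 core letters GCGCATGC or GCGCACGC stood on either strand in 17 of the 78 (21.8%), against 6.08% of the promoters of 27025 genes and 11.5% of those of 10333 tested genes. The YY1 letters AAGATGGCG were found in 7 of 78 (8.97%), against 1.64% and 3.29%. The ETS letters CCGGAAGT were found in 5 of 78 (6.41%), against 4.31% and 8.29%, and the GC box letters GGGCGG in 39 of 78 (50.0%), against 38.2% and 64.9%. A match is a description of the letters and not a measured site. The promoters of Ndufaf4, Sdhb and Uqcr11 are shown because they hold the NRF1 letters, in Ndufaf4 the GCGCATGC letters of both strands overlapping each other. Each sequence runs 5′ to 3′ on the strand of its gene, from 150 bases before to 10 bases after the start of the gene, and the capitals mark NRF1 or ETS letters on either strand. Ndufaf4 lies on the plus strand at chr4:24897933-24898092, Sdhb on the plus strand at chr4:140961121-140961280 and Uqcr11 on the minus strand at chr10:80406812-80406971.
Ndufaf4: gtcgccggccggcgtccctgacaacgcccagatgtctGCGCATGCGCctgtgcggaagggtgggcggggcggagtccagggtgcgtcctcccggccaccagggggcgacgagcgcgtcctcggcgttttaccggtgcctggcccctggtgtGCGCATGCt
Sdhb: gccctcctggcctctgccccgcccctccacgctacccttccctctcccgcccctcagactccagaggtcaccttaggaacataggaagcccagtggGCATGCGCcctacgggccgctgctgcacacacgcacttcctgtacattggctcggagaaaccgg
Uqcr11: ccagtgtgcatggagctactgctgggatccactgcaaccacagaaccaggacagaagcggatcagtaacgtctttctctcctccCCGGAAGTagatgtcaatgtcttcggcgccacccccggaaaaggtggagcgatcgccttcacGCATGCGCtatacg

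Probe sets with a mean signal of at least 48.6, the 40th percentile, were tested, which left 27022 probe sets and 89 of the 94 genes. A mean signal over the 12 arrays is the mean of the log2 signals turned back to the linear scale. Averages given with an SD are means of the linear signals. The genes below this filter were Cox6b2, Cox7b2, Cox8b, Ndufa4l2 and Ndufb4. The 34 complex I subunits had mean signals of 25 to 19824 over the 12 arrays (median 8289), the 4 complex II subunits 5474 to 13458, the 8 of complex III 6576 to 45343, the 17 of complex IV 9.0 to 32100 and the 17 of complex V 6462 to 29064. The assembly factors had mean signals of 271 to 2019 for complex I and 662 to 2051 for complex II. Signals of different probe sets depend on their probes, and those of the members were not compared with each other.

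The arrays were first described by the median, over the 89 tested genes, of the log2 signal of a gene minus its own mean over the 12 arrays. This median was 0.01, -0.03 and 0.01 in LDC males and 0.15, 0.09 and 0.04 in control males, in the order of the replicate numbers. It was 0.02, 0.01 and 0.01 in LDC females and -0.18, -0.01 and -0.12 in control females. The LDC arrays of both sexes thus lay close to each other, the control males above them, and control females 1 and 3 below every other array, while control female 2 stayed near the LDC arrays. Over the 12820 named genes tested the same median ran from -0.01 to 0.07. Of the 94 genes, 70 had a mean signal above 3888, the 90th percentile of these named genes. Bright probe sets were therefore taken as well, the 1831 with a mean log2 signal above 12, those of the members left out. Their median log2 signal, minus its mean over the arrays, was 0.03, 0.04 and -0.002 in control males. In control females it was -0.08, 0.02 and -0.03. In control female 1, 12.4% of the members lay above their own mean, and in control male 1, 87.6% did. Complexes I, III, IV and V each had all 3 control males above all 3 control females. In complex II, control male 3 (-0.03) lay below control female 2 (0.01).

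**Figure D1:**
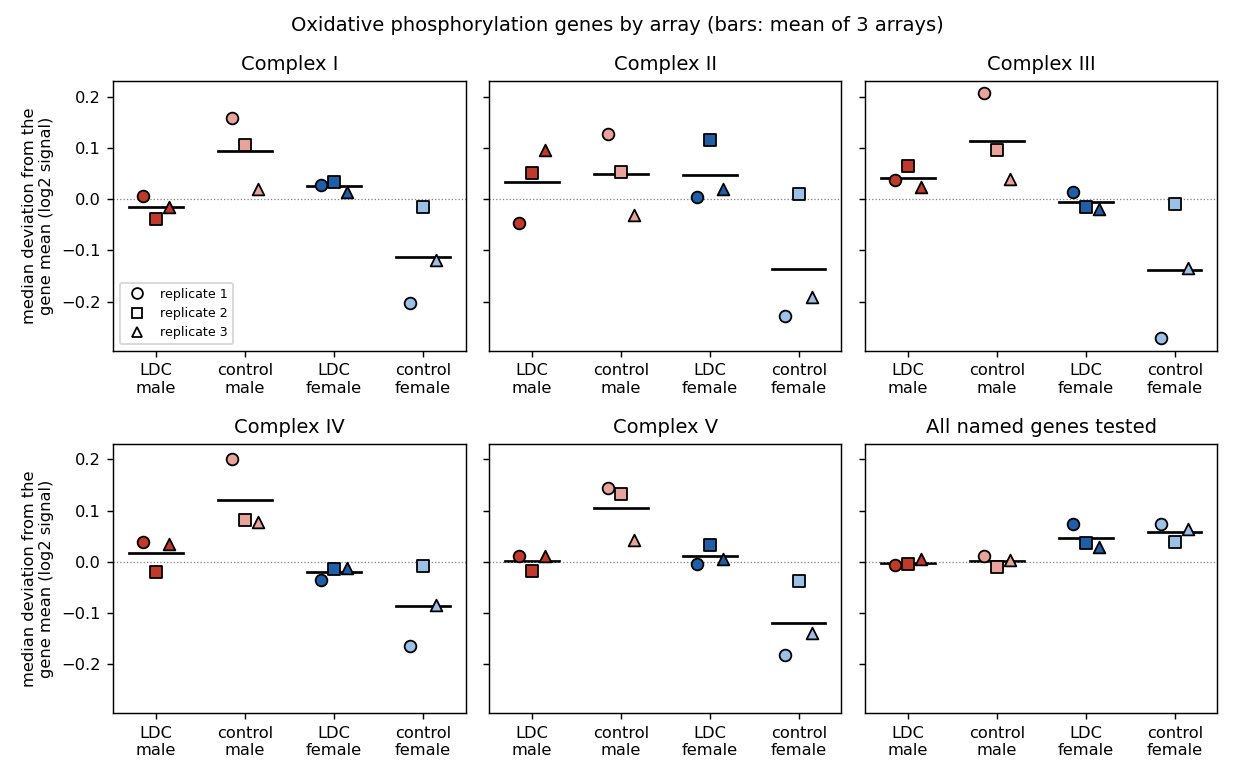
Median deviation of log2 signal from each gene's own mean (vertical axis) in each of the 12 arrays, by complex and over all named genes tested; points are arrays, their shapes the replicate numbers, and bars the mean of the 3 arrays of a group. In complex I the 3 control males lie at 0.16, 0.11 and 0.02 and the 3 control females at -0.20, -0.01 and -0.12, with the LDC arrays of both sexes between -0.04 and 0.03.

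Signs of tissue composition and RNA quality were measured beside these values. All 9 hepatocyte markers passed the filter, with summed signals of 364807 to 373863 in LDC males, 368216 to 413858 in control males, 345284 to 381866 in LDC females and 344467 to 384326 in control females. The 9 neutrophil markers, of which 7 passed the filter, summed to 5677, 5631 and 5676 in LDC males and to 1574, 2308 and 2776 in control males. In females they summed to 2735, 2172 and 1304 with LDC, against 16920, 6003 and 22230 in controls, so control females 1 and 3 stood highest. Of 8 plasma cell and lymphocyte markers, 7 had a probe set and 5 passed the filter. The 7 summed to 926 to 2051 in LDC females and 4601 to 11991 in control females, and to 4000 to 6075 in LDC males and 3611 to 4270 in control males. The macrophage and Kupffer cell markers, 8 of 8 past the filter, summed to 19351 to 26778 in LDC males and 13140 to 13470 in control males, and to 6621 to 30423 in LDC females and 15858 to 40740 in control females. The smallest two-sided exact permutation p that 3 arrays against 3 allow is 0.1, and the neutrophil sums reached it in both sexes and between control males and control females. The plasma cell and lymphocyte sums reached it in females, the macrophage and Kupffer cell sums in males, and both between control males and control females. Between control males and control females it was also reached by the 8 stellate cell and fibroblast markers (8 past the filter, sums of 9813 to 12598 in control males and 14258 to 24532 in control females). The red blood cell markers reached it there too (3 of 7 with a probe set, 1 past the filter, sums of 2652 to 3892 in control males and 405 to 586 in control females). The endothelial and bile duct cell sums, like those of hepatocytes, reached it in none of these 3 comparisons. At a limma adjusted p under 0.05, LDC females had 4 neutrophil and 2 plasma cell and lymphocyte markers lower (0.0962% of all probe sets). LDC males had 1 neutrophil marker higher (0.159%). Against control females, control males had 5 neutrophil and 2 stellate cell and fibroblast markers lower (4.14%). They had 1 hepatocyte and 1 red blood cell marker higher (3.59%). The 3′/5′ ratio of the actin control probe sets was 1.64 to 1.98 in LDC females and 1.97 to 2.21 in control females (exact permutation p = 0.2), and that of Gapdh was 0.684 to 0.763 in LDC males and 0.766 to 0.836 in control males (exact permutation p = 0.1). The part of these markers and ratios in the results below was not tested. In bulk tissue, fewer cells of a type and less RNA per cell cannot be told apart.

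Males were compared with females among the control mice. Of the 89 genes, 15 were higher in control males and 0 were lower at an adjusted p under 0.05 (limma with Benjamini-Hochberg adjustment over all 27022 probe sets), while 3.59% of all probe sets tested were called higher and 4.14% lower. The 15 were 6 complex I subunits, the complex I assembly factor Ndufaf4, Sdha of complex II, 3 subunits of complex III, 2 of complex IV and 2 of complex V. The median log2 fold change of the 89 genes was 0.21, against -0.06 over all named genes, and 76 lay above 0 (48.5% of all probe sets). All 3 control males lay above all 3 control females in 44 of the 89 genes, compared with 11.6% of all probe sets, and below them in 2, compared with 13.0%. At an unadjusted p under 0.05, 44 were higher (9.89% of all probe sets) and 1 was lower (11.6%). The count of calls depended on single arrays: it was 4 (3 higher and 1 lower) without control female 1, 6 without control male 1, 9 without control male 2 or control male 3, and 23 without control female 2. It was 22 (21 higher and 1 lower) with the filter at the 60th percentile and 11 (10 higher and 1 lower) with centring on bright probe sets. It was 2 when the 6 control arrays were fitted alone, 1 when the variances were moderated without an intensity trend, and 0 with the methods' t-test, which the study names for body measures, after the same adjustment.

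Ndufaf4, an assembly factor of complex I, had the smallest p. Its signal was 2092, 1728 and 1956 in control males, against 1126, 1094 and 1027 in control females, a log2 fold change of 0.83 (standard error, SE, 0.12, limma adjusted p = 0.000746). Every control male lay well above every control female. A second probe set of Ndufaf4 gave 0.65 (limma adjusted p = 0.0164). Ndufaf4 was called in all 12 fits that left out an array, as were Ndufb9 and Uqcrc1. The other 7 Ndufaf genes did not share this difference: their log2 fold changes lay between -0.32 and 0.07, and none passed the test.

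Among the complex I subunits, Ndufb9 of the membrane arm had signals of 23836, 20635 and 21271 in control males and 14941, 17972 and 16080 in control females. Its log2 fold change was 0.43 (SE 0.08, limma adjusted p = 0.00593). Ndufv1, which carries the flavin that accepts electrons from NADH, measured 8181, 7872 and 7647 in control males and 5306, 6577 and 5954 in control females (log2 fold change 0.41, SE 0.09, limma adjusted p = 0.0130). The groups did not overlap in either gene, and control female 1 was the lowest array in both. Ndufb3, also of the membrane arm, had a log2 fold change of 0.40 (limma adjusted p = 0.0151). Ndufs4 and Ndufs3, both of the matrix arm, had log2 fold changes of 0.36 and 0.33 (limma adjusted p = 0.0281 and 0.0306). The X-linked subunit Ndufa1 averaged 22290 ± 1293 in control males and 18385 ± 1116 in control females (SD, n = 3 each), a log2 fold change of 0.28 (limma adjusted p = 0.0381). Over all 33 tested complex I subunits the median was 0.21, with 31 above 0.

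Complex II oxidises succinate and belongs to the citrate cycle as well. Sdha, its flavoprotein, had signals of 13166, 12842 and 12695 in control males and 9665, 10669 and 10626 in control females, which do not overlap. Its log2 fold change was 0.32 (SE 0.07, limma adjusted p = 0.0135). Sdhb, the iron-sulfur subunit, measured 15870, 13777 and 13405 in control males and 10732, 12880 and 10234 in control females (log2 fold change 0.35, limma adjusted p = 0.0544, just short of the threshold). The membrane anchors Sdhc and Sdhd had log2 fold changes of 0.05 and 0.09 (limma adjusted p = 0.823 and 0.642) and overlapping groups. A second probe set went the other way for each anchor, at -0.61 for Sdhc and -0.56 for Sdhd (limma adjusted p = 0.178 and 0.0857).

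In complex III, Uqcrc1, a core protein, had signals of 8657, 8067 and 7314 in control males and 5336, 6117 and 5682 in control females. This was a log2 fold change of 0.49 (SE 0.10, limma adjusted p = 0.00630) with no overlap. The small subunits Uqcr10 and Uqcr11 had log2 fold changes of 0.39 and 0.31 (limma adjusted p = 0.0251 and 0.0333). All 8 complex III genes lay above 0, with a median of 0.26. Of complex IV, Cox7a2, the isoform found in most tissues including liver, averaged 28316 ± 1027 in control males and 23317 ± 1611 in control females (SD, n = 3 each), a log2 fold change of 0.28 (limma adjusted p = 0.0250). Ndufa4, once assigned to complex I and now counted with complex IV, had a log2 fold change of 0.30 (limma adjusted p = 0.0409). In complex V, Atp5o, which joins the catalytic head to the peripheral stalk, and Atp5l, a subunit of the membrane part, had log2 fold changes of 0.34 and 0.30 (limma adjusted p = 0.0306 and 0.0420). The median over the 17 genes of complex V was 0.24, with 16 above 0. The calls for Atp5l, Ndufa1 and Ndufa4 were the least stable, lost in 10, 8 and 8 of the 12 fits without an array. Without control female 1, 12 of the 15 calls were lost, and those for Ndufaf4, Ndufb9 and Uqcrc1 remained.

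Where a gene had several probe sets, the others were examined too. In this comparison 62 of 83 other probe sets of 50 genes went the same way as the chosen one, and 8 of them were called higher. These 8 belong to Ndufb5, Ndufb9, Ndufaf4, Sdha, Cox5a, Cox5b, Cox6a1 and Cox7a2, of which Ndufb5, Cox5a, Cox5b and Cox6a1 were not called by the probe set chosen. Only the second probe sets of Sdhc and Sdhd went the opposite way with an unadjusted p under 0.05. In the comparisons below, the same way was found in 56 of 83 for LDC in males and 64 for LDC in females. It was found in 70 for the difference of these effects and in 48 for males against females in LDC mice. Opposite with an unadjusted p under 0.05 were 2 for LDC in males, 2 in LDC mice and 0 in the other 2 comparisons.

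**Figure D2:**
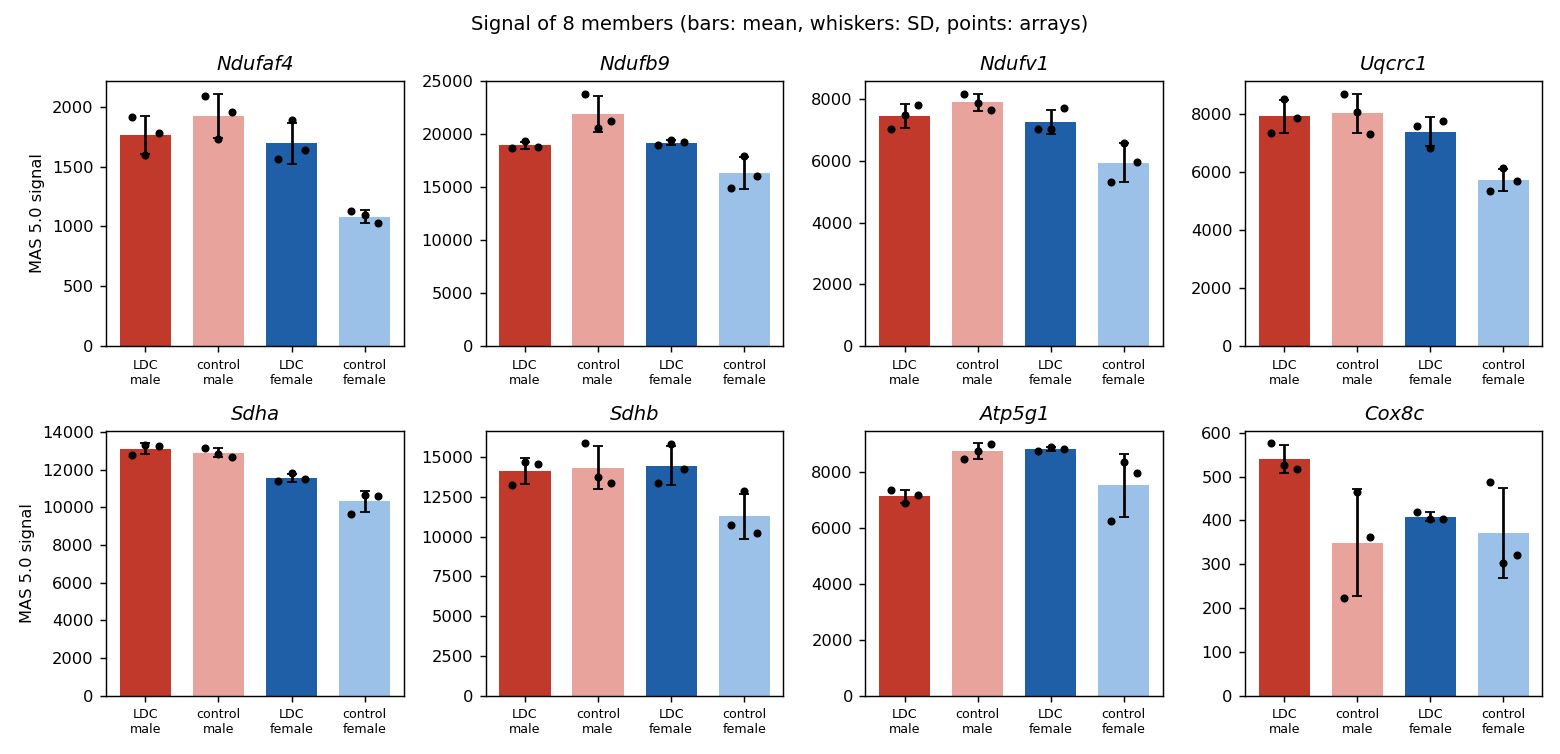
MAS 5.0 signal (vertical axis, linear, from 0) of 8 genes in LDC males, control males, LDC females and control females; bars are means of 3 arrays, whiskers the SD and points the arrays. Control females have the lowest mean of Ndufaf4, at 1082 ± 50.7, and Atp5g1 averages 7117 in LDC males, 8726 in control males, 8802 in LDC females and 7506 in control females.

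Among LDC mice the same comparison gave another picture. Males were higher than females in 0 of the 89 genes at an adjusted p under 0.05 (3% of all probe sets) and lower in 1 (3.29%), and the methods' t-test with the same adjustment called 2, both lower. The median log2 fold change was -0.01, against -0.05 over all named genes, and 38 of 89 lay above 0 (47.7% of all probe sets). At an unadjusted p under 0.05, 5 were higher and 8 lower (8.36% and 10.6% of all probe sets). In 14 genes all LDC males lay above all LDC females (12.5% of all probe sets), and in 14 all lay below (14.4%). The called gene was Ndufaf8, a complex I assembly factor, with signals of 1793, 1812 and 1706 in LDC males and 2341, 2374 and 2373 in LDC females. Its log2 fold change was -0.42 (SE 0.10, limma adjusted p = 0.0203), and the call was lost when any of the 6 LDC arrays was left out. In control mice Ndufaf8 had -0.32 (limma adjusted p = 0.0623), so the direction was the same in both. For 2 genes another probe set went the opposite way with an unadjusted p under 0.05 in LDC mice. That of Atp5j2 gave 1.13, where the chosen one gave -0.04 (limma adjusted p = 0.0576 for the other). That of Ndufv2 gave -0.22, where the chosen one gave 0.04 (limma adjusted p = 0.259 for the other). By complex, the medians in LDC mice were -0.04 for complex I, -0.05 for II, 0.05 for III, 0.05 for IV and 0.02 for V, where those in control mice were 0.21, 0.21, 0.26, 0.20 and 0.24. The assembly factors of complex I had medians of -0.10 in LDC mice and 0.03 in control mice, and those of complex II -0.17 and -0.16. These 2 comparisons share no array.

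**Figure D3:**
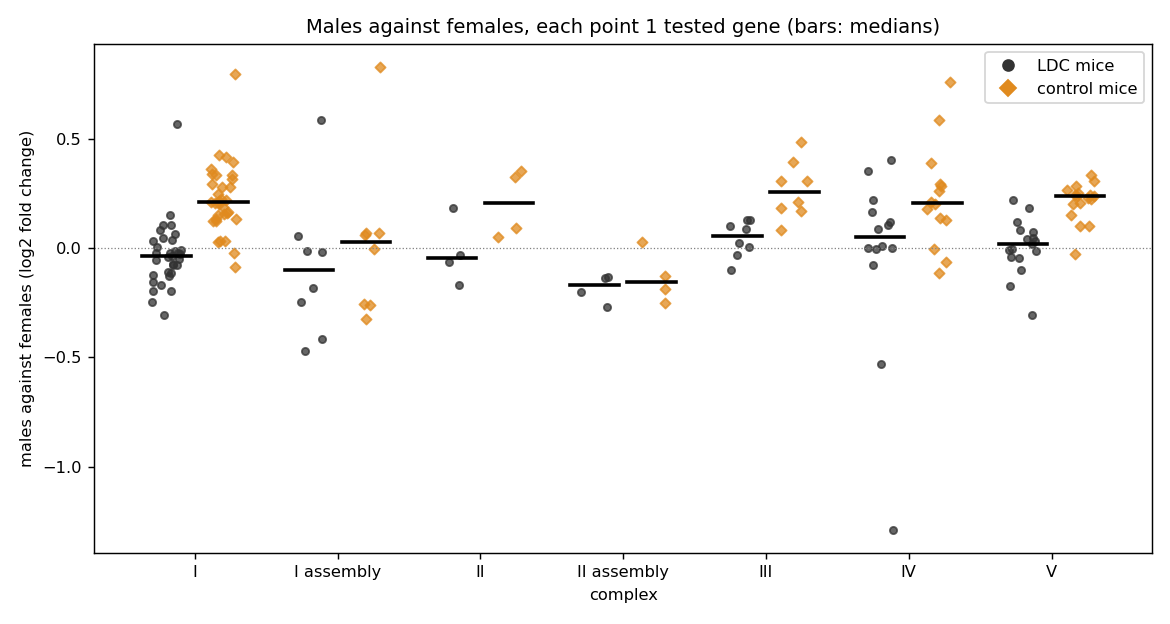
Log2 fold change of males against females (vertical axis) for each tested gene by complex, in LDC mice (dark circles) and in control mice (orange diamonds); bars are medians. The medians of complexes I to V lie between -0.05 and 0.05 in LDC mice and between 0.20 and 0.26 in control mice.

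In males, LDC mice were compared with control mice. No gene passed an adjusted p under 0.05 (0 of 89 from limma and 0 with the methods' t-test), where 0.159% of all probe sets were called higher and 0.118% lower. The median log2 fold change was -0.08, against -0.01 over all named genes, and 14 of 89 lay above 0 (50.1% of all probe sets). Without control male 1, 31 of 89 lay above 0 and the median was -0.06. At an unadjusted p under 0.05, 13 genes were lower (5.08% of all probe sets) and 2 higher (5.16%), and 0 of these reached 2-fold (1.69% of all probe sets higher and 1.31% lower). All LDC males lay below all control males in 26 genes (7.92% of all probe sets) and above them in 2 (8.62%). The complexes had medians of -0.12 for I, -0.03 for II, -0.03 for III, -0.14 for IV and -0.08 for V.

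The smallest p in males belonged to Ndufa8, an accessory subunit of complex I, with signals of 6669, 6650 and 6655 in LDC males, against 8432, 7787 and 7504 in control males. Its log2 fold change of -0.25 (SE 0.08, unadjusted p = 0.00921) had a limma adjusted p of 0.309. The LDC males lay close together, below every control male. Ndufs4 measured 3553, 3814 and 3712 in LDC males and 4506, 4567 and 4320 in control males (log2 fold change -0.27, limma adjusted p = 0.319). Atp5g1, which encodes the c subunit of the ATP synthase rotor, measured 7325, 6866 and 7160 in LDC males and 8435, 8751 and 8993 in control males (log2 fold change -0.29, limma adjusted p = 0.319). In complex III, Uqcr10 had a log2 fold change of -0.27 (limma adjusted p = 0.369), and in complex II the value of smallest p was that of Sdhd, at -0.12 (limma adjusted p = 0.745). The second probe set of Sdhc, however, gave 0.70 (unadjusted p = 0.0153, limma adjusted p = 0.360), where the chosen one gave -0.04. Another probe set of Ndufv2 gave -0.24 (unadjusted p = 0.0341, limma adjusted p = 0.439), where the chosen one gave 0.05. Of the genes above 0, the smallest p were those of Cox8c, an isoform known from testis, and Ndufaf6, an assembly factor. Cox8c had 576, 527 and 517 in LDC males and 222, 464 and 361 in control males (log2 fold change 0.69, limma adjusted p = 0.361), which do not overlap. Ndufaf6 had 2142, 1584 and 2720 in LDC males and 1603, 1628 and 1461 in control males, which overlap (log2 fold change 0.42, limma adjusted p = 0.429).

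In females, LDC mice were compared with control mice in the same way. Again 0 of 89 genes passed an adjusted p under 0.05 with limma, and 0 with the methods' t-test, where 0.0259% of all probe sets were called higher and 0.0962% lower. The median log2 fold change was 0.12, against -0.02 over all named genes, and 76 of 89 lay above 0 (50.7% of all probe sets). Without control female 1 the median was 0.07. Before adjustment, p under 0.05 was reached by 14 higher genes (4.69% of all probe sets) and 0 lower ones (4.33%), again with 0 at 2-fold (1.04% higher and 1.15% lower). All LDC females lay above all control females in 18 genes (7.16% of all probe sets) and below them in 1, Ndufaf2 (6.71%). The medians were 0.13 for complex I, 0.16 for II, 0.13 for III, 0.11 for IV and 0.11 for V.

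Ndufaf4 had the smallest p here as well, with signals of 1561, 1890 and 1638 in LDC females, against 1126, 1094 and 1027 in control females. Its log2 fold change was 0.64 (SE 0.12, unadjusted p = 9.93e-05, limma adjusted p = 0.0688). The groups did not overlap, and the range of the LDC females overlapped that of the males of both treatments. Uqcrc1 measured 7562, 6807 and 7758 in LDC females and 5336, 6117 and 5682 in control females (log2 fold change 0.37, limma adjusted p = 0.197). Sdhb measured 13366, 15826 and 14233 in LDC females and 10732, 12880 and 10234 in control females (log2 fold change 0.36, limma adjusted p = 0.257). Neither overlapped between the groups. Ndufv1 and Ndufb3 had log2 fold changes of 0.29 and 0.27 (limma adjusted p = 0.323 and 0.354), Atp5g1 0.24 (limma adjusted p = 0.494), and Cox7a2, the complex IV gene with the smallest p, 0.11 (limma adjusted p = 0.682). Ndufaf2, an assembly factor of complex I, measured 739, 715 and 739 in LDC females and 764, 927 and 816 in control females (log2 fold change -0.19, limma adjusted p = 0.765). Ndufb1 had a log2 fold change of -0.60 (SE 0.52, limma adjusted p = 0.787), and its 3 control females ranged from 58.1 to 284.

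The 2 effects of LDC were then set against each other. The difference, the effect in males minus that in females, is also the male to female difference in LDC mice minus that in control mice. It passed an adjusted p under 0.05 in 0 of 89 genes with limma, and in 0 with the methods' t-test, where 0.126% of all probe sets were called higher and 0.0518% lower. At an unadjusted p under 0.05, 24 genes were lower (4.91% of all probe sets) and 0 higher (5.34%). The median difference was -0.22, against 0.01 over all named genes, and 5 of 89 lay above 0 (49.5% of all probe sets). The number above 0 was 9 without control female 3, LDC female 3, control male 1 or LDC male 2, 8 without control female 1, LDC female 2 or LDC male 1, and 14 without both control arrays numbered 1. In 65 of 89 genes the log2 fold change lay below 0 in males and above 0 in females, compared with 25.6% of all named genes. The opposite combination was found in 3, both values lay above 0 in 11, and both lay below 0 in 10. The medians by complex were -0.27 for I, -0.20 for II, -0.18 for III, -0.18 for IV and -0.19 for V, and -0.15 and -0.01 for the assembly factors of complexes I and II. These effects share the control arrays with the comparison of control males and control females, so the 2 patterns are not separate observations.

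Ndufaf4 had the smallest p for the difference, at -0.77 on the log2 scale (SE 0.17, unadjusted p = 0.000466, limma adjusted p = 0.110), with effects of -0.13 in males and 0.64 in females. Ndufb9 followed, at -0.45 (limma adjusted p = 0.191). Its signals were 18686, 19351 and 18782 in LDC males, against 23836, 20635 and 21271 in control males, and 18991, 19423 and 19236 in LDC females, against 14941, 17972 and 16080 in control females. All 6 LDC arrays of Ndufb9 thus lay below all control males and above all control females. Atp5g1 had -0.54 (limma adjusted p = 0.193), and its females measured 8727, 8886 and 8792 with LDC and 6225, 8333 and 7960 in controls. Uqcrc1, Sdhb and Cox7a2 had the smallest p of complexes III, II and IV, at -0.39, -0.38 and -0.27 (limma adjusted p = 0.354, 0.394 and 0.378). Among the differences above 0, the smallest p were those of Ndufaf6 and Cox8c, both 0.52 (limma adjusted p = 0.501 and 0.662).

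**Figure D4:**
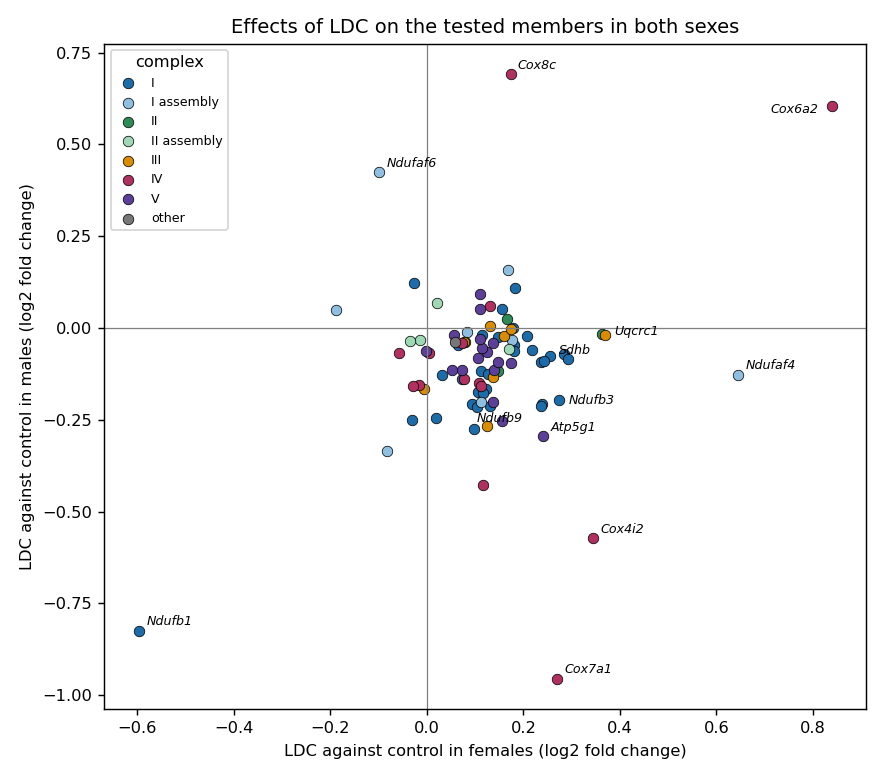
Log2 fold change of LDC against control in males (vertical axis) and in females (horizontal axis) for the 89 tested genes, coloured by complex. Of the points, 65 lie in the lower right part, and the medians of all 89 are -0.08 in males and 0.12 in females; the points farthest out, such as Ndufb1, Cox7a1 and Cox6a2, had no adjusted p under 0.05.

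Several subunits of complex IV exist as pairs of isoforms with different tissues. The isoforms known from liver and most tissues were Cox4i1, Cox6a1, Cox6b1, Cox7a2 and Cox8a, and none of these had an adjusted p under 0.05 for LDC in either sex. Cox4i1 had log2 fold changes of -0.07 in males and 0.00 in females, and Cox6a1 had -0.07 and -0.06. Cox6b1 had -0.14 and 0.08, and Cox8a had 0.06 and 0.13. Of the forms known from heart and muscle, Cox6a2 averaged 137 ± 50.3 in LDC males and 87.3 ± 17.3 in control males, and 107 ± 36.4 in LDC females and 65.5 ± 40.4 in control females (SD, n = 3 each). Cox7a1 had signals of 45.2, 35.4 and 123 in LDC males and 151, 90.6 and 105 in control males (log2 fold change -0.96, SE 0.51, limma adjusted p = 0.560). These groups overlap, as do those of Cox6a2, and the spread within a group is wide. Cox4i2, known from lung, had -0.57 in males and 0.34 in females (limma adjusted p = 0.707 and 0.869). Cox8b, another muscle form, was below the filter, with 88.8, 67.8 and 70.2 in LDC males and 41.3, 11.6 and 28.4 in control males, which do not overlap and were not tested. Cox6b2 and Cox7b2, known from testis, and Ndufa4l2, a relative of Ndufa4, were below it too, with lowest and highest single signals of 10.8 and 120 for Cox6b2, 1.13 and 86.0 for Cox7b2 and 16.7 and 127 for Ndufa4l2. Of 8 skeletal muscle markers 3 passed the filter, with sums of 174 to 2016 in LDC males and 308 to 536 in control males. Of 7 adipocyte markers 5 had a probe set, and none passed it.

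**Figure D5:**
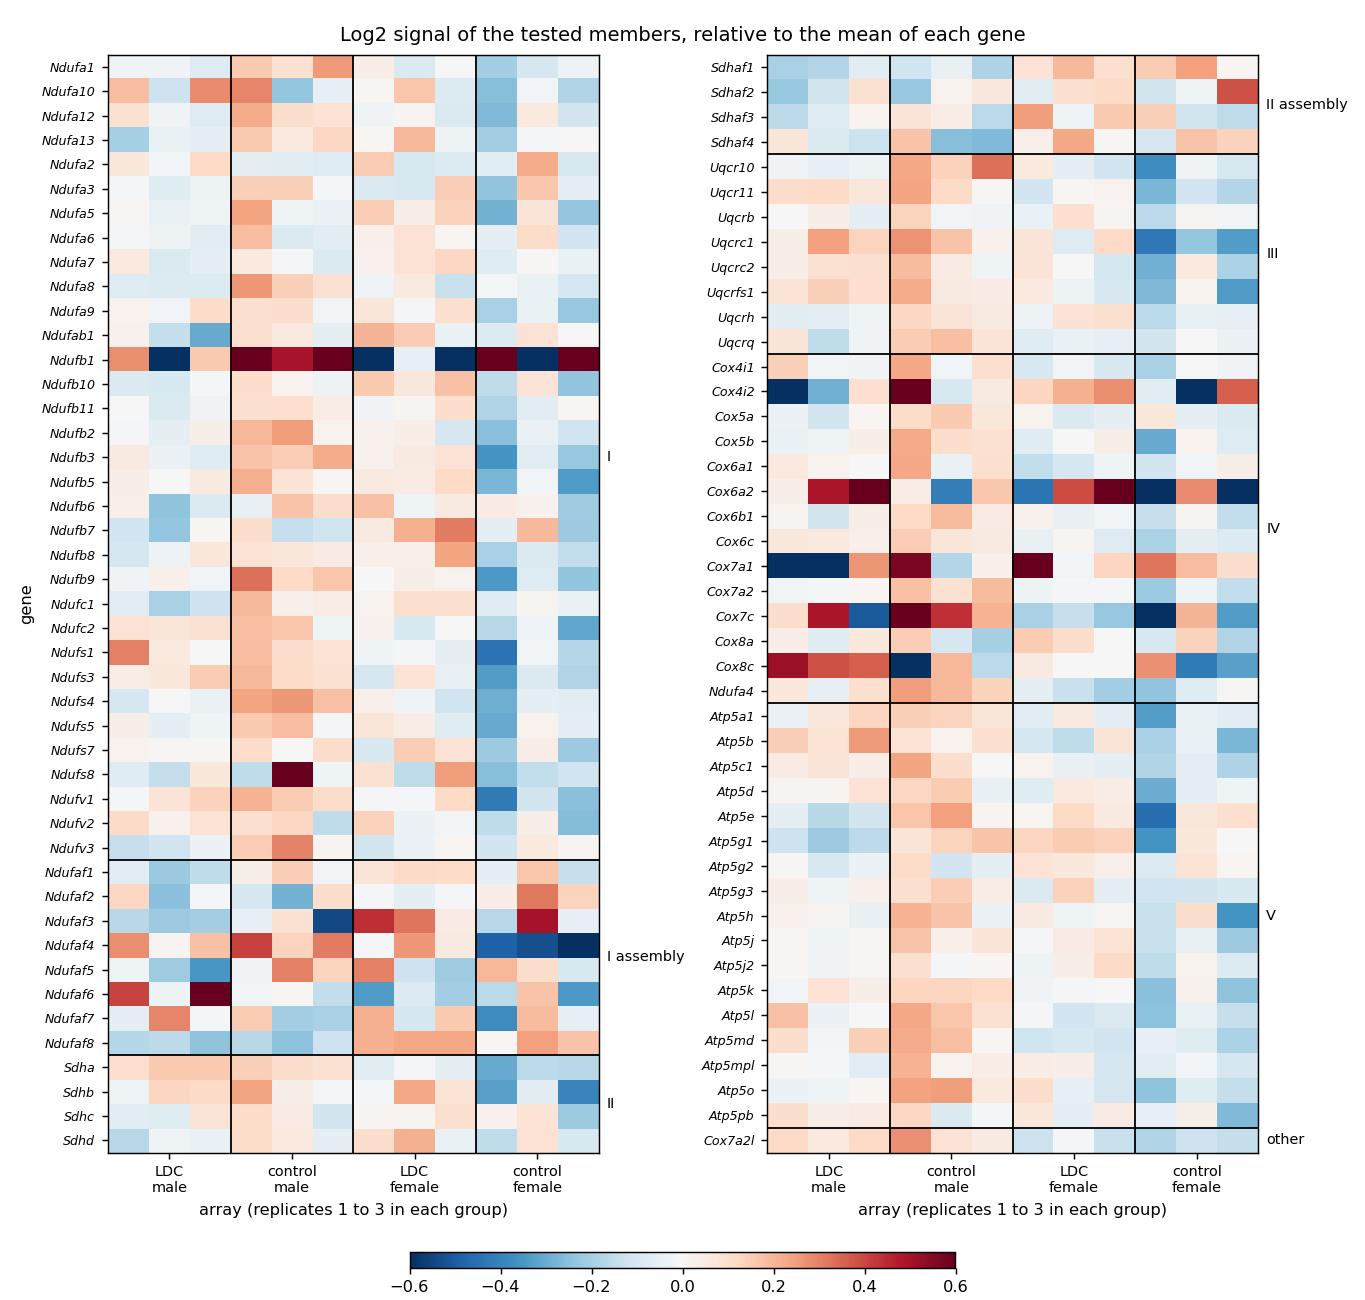
Log2 signal of each of the 89 tested genes (rows, by complex) in each array (columns, replicates 1 to 3 in each group) minus the mean of the gene; red is above and blue below that mean, and the colour ends at -0.6 and 0.6. Most rows are red in the control males and blue in control females 1 and 3. The rows with strong colours on single arrays are those of probe sets of low signal, such as the ones chosen for Ndufb1, Cox4i2, Cox6a2 and Cox7a1.

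Other genes of the pathway were taken from lists written from general knowledge. No gene of these lists passed an adjusted p under 0.05 for LDC in males, in females or for the difference. Of 6 further tested genes of complex III, 1 was higher in control males than in control females, Cyc1, which encodes cytochrome c1 (log2 fold change 0.33, limma adjusted p = 0.0368). Of 18 tested assembly factors of complex IV, 3 were higher and 0 lower: Cox19 (0.76) and Cox11 (0.59), which serve copper delivery, and Lrpprc (0.55), which stabilises mitochondrial mRNAs (limma adjusted p = 0.00255, 0.0345 and 0.00708). The median of this list was 0.13 in that comparison, -0.06 for LDC in males and 0.11 for LDC in females. Of 8 further complex I assembly factors, Acad9 was lower in control males (-0.71, limma adjusted p = 0.0162) and 0 were higher. Of 5 further genes of complex V, Atpif1, the inhibitor of the ATP synthase, was lower (-0.98, limma adjusted p = 0.000444) and 0 were higher.

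Among 15 tested mobile electron carriers and genes of coenzyme Q, 2 were higher and 1 was lower in LDC males than in LDC females. These were Coq7, a hydroxylase of ubiquinone synthesis, with a log2 fold change of 0.76, Coq10b, a ubiquinone-binding protein, with 1.47, and Coq8a, an atypical kinase that ubiquinone synthesis needs, with -1.40 (limma adjusted p = 0.000879, 0.000196 and 1.46e-05). In control mice the same genes were called in the same directions, at 0.53, 1.38 and -0.91 (limma adjusted p = 0.0105, 0.000372 and 0.000587). Cycs, cytochrome c itself, was called higher in control males than in control females only, at 0.46 (limma adjusted p = 0.00806), and the difference from LDC mice was not called for any gene of the list. The carriers that exchange nucleotides, phosphate and metabolites across the mitochondrial membranes had 0 calls of 10 tested in each of the 5 comparisons, with medians between -0.06 and 0.06.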

How the data were processed

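The authors hybridised total liver RNA to Affymetrix mouse genome arrays and computed MAS 5.0 signals in GeneSpring. The deposited table holds 1 linear signal intensity per probe set and array, with a trimmed mean of 500 on every array and no detection calls. Columns were mapped to samples by their labels, and 0 were left without a sample. Probe sets were named from the platform annotation of 2016: 34945 of 45101 name 1 gene. Of the 94 probe sets of the members, 13 carry the suffix s and 5 the suffix x, which mark probes that can match several transcripts. The 64 control probe sets were left out. Intensities were log2 transformed without further scaling, and a mean for each group was fitted with limma 3.58.1 (R 4.3.3) to probe sets at or above the 40th percentile (8 residual degrees of freedom, eBayes with an intensity trend). P-values were adjusted over 27022 probe sets by Benjamini and Hochberg in each of 5 contrasts. The design paired no samples: residuals of arrays with the same replicate number correlated between -0.03 and 0.06.

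Genes named are those called in any contrast, the smallest p of each complex and direction, complex II, isoform pairs and genes whose probe sets disagree. From the pathway lists, genes called in any contrast and 5 regulators were named. The genes called by other probe sets and those with opposite, separated effects were named after their values were seen. The members and lists were chosen with earlier results of these data known, and the lists were written from general knowledge. Lists received no set test. Marker sums and probe ratios were compared by exact permutation tests. Promoter sequences are from RefSeq (GRCm38.p6). Alternatives were other filters, quantile normalization, median centring, log2(signal + 32), fits on the 6 arrays of a contrast, no intensity trend, array weights, the methods' t-test, a replicate block, the mean of all probe sets and each array left out. For the difference, the t-test pooled the variance over all groups. Centring on bright probe sets and leaving out both control arrays numbered 1 were added after seeing the data. The fit was tested on simulated data. Python 3.11.15 with matplotlib 3.10.9 drew the figures.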

Additional observations from a re-analysis of the deposited data

Results flagged for a closer look

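In 7 genes every LDC male lay below every control male while every LDC female lay above every control female, compared with 0.959% of all 12820 named genes. The differences between the effects, male minus female on the log2 scale, were -0.54 for Atp5g1, -0.19 for Atp5g3 and -0.27 for Atp5j of complex V, -0.47 for Ndufb3, -0.45 for Ndufb9 and -0.32 for Ndufc1 of complex I, and -0.27 for Uqcrh of complex III. Tested as an interaction in the limma fit, none of the 7 passed, with adjusted p between 0.191 (Ndufb9) and 0.577 (Atp5g3). Uqcrh, the hinge protein of complex III, measured 13599, 13666 and 13986 in LDC males, against 15485, 15018 and 14751 in control males, and 13938, 15123 and 15187 in LDC females, against 12704, 13773 and 13764 in control females. The opposite arrangement was found in 0 of the 89 tested members, compared with 0.655% of all 12820 named genes.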

How the results depend on the processing

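Under every alternative run, 0 members were called for LDC in males, in females and for the difference, and the 5 medians kept their direction. The calls between control males and control females, 15 as reported, were 22 with the filter at the 60th percentile (21 higher and 1 lower), 16 with log2(signal + 32), 12 with the mean of all probe sets, 11 with array weights, 11 with centring on bright probe sets (10 higher and 1 lower), 10 with the filter at the 20th percentile, 8 without the filter, 9 with quantile normalization, 3 with median centring, 2 on the 6 arrays of the contrast alone, 1 without the trend, 0 with the methods' t-test and 1 without both control arrays numbered 1; single arrays left out gave 4 to 23. Their median of 0.21 was 0.15 with median centring, 0.15 with centring on bright probe sets and 0.14 without both control arrays numbered 1. The median over all probe sets in this comparison was -0.017 as reported. It was -0.075 with median centring, -0.069 with centring on bright probe sets and -0.015 without both control arrays numbered 1. In LDC mice the calls were 2 on the 6 arrays alone, 0 without the trend, 3 with array weights (1 higher and 2 lower), 2 with the methods' t-test, 0 with the mean of all probe sets, 3 with centring on bright probe sets and 2 without both control arrays numbered 1, and 0 to 2 with single arrays left out, among them 1 higher without LDC male 2; the median was -0.094 with median centring and -0.076 with centring on bright probe sets. Without both control arrays numbered 1 the female median was 0.069 and that of the difference -0.15. Single arrays left out gave medians of -0.11 to -0.06 in males, 0.069 to 0.17 in females, -0.27 to -0.17 for the difference, -0.024 to -0.0031 in LDC mice and 0.16 to 0.24 in control mice. Sdha between LDC males and LDC females was 0.18 with the probe set chosen (limma unadjusted p = 0.0247, adjusted p = 0.179). With the mean of all probe sets it was -0.18. Replicate numbers did not pair the arrays; a replicate block left 11 calls in control mice, 1 in LDC mice and 0 in the other comparisons. The members above 0 in LDC mice, 38 as reported, were 23 with median centring and 25 with centring on bright probe sets. Centring subtracts the same value from every probe set of an array, members included. In LDC mice the median over all probe sets moved as well. It was -0.022 as reported, -0.10 with median centring and -0.084 with centring on bright probe sets. For the difference, 5 as reported, they were 8 with the filter at the 20th percentile, 9 without the filter, 9 with array weights and 10 with the mean of all probe sets. The cause of the other changes was not tested. The difference could not be fitted on 6 arrays.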

Other observations

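Citrate cycle genes feed electrons to the chain, and 13 of 14 listed were tested. Between LDC males and LDC females, fumarate hydratase Fh1 (log2 fold change 0.99) and Ogdh (0.41) were called higher in males and citrate synthase Cs (-0.83) lower (limma adjusted p = 3.76e-05, 0.0484 and 0.00123). Between control males and control females, Fh1 (1.18), Suclg1 (0.45) and Dlst (0.39) were called higher in males and Cs (-0.68) and Idh2 (-0.46) lower (limma adjusted p = 6.29e-06, 0.0263, 0.0408, 0.00567 and 0.0453). The list median for LDC was 0.02 in males and 0.12 in females, with 0 calls in either, and 2 higher and 1 lower in males and 3 higher and 0 lower in females at an unadjusted p under 0.05.

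Of 15 regulators of nuclear genes for mitochondrial proteins, Ppara and the coactivator Ppargc1b were higher in males in both treatments, with log2 fold changes of 0.84 and 1.35 in LDC mice and 0.49 and 1.47 in control mice (limma adjusted p = 0.00106, 0.00307, 0.0313 and 0.00160). Ppargc1a, the related coactivator, was called higher in males in LDC mice (1.16, limma adjusted p = 0.00139), with 0.39 in control mice (adjusted p = 0.248). Its LDC effects were 0.31 in males and -0.46 in females, and their difference of 0.78 did not pass (limma adjusted p = 0.340). Nrf1 had -0.05 in LDC mice and -0.79 in control mice for males against females (limma adjusted p = 0.940 and 0.0614). Gabpa, Esrra and Tfam were called in none of the 5 comparisons. Of 8 tested genes of mitophagy and mitochondrial dynamics, Bnip3, a mitophagy receptor, was higher in males in both treatments (0.70 in LDC mice and 0.49 in control mice, limma adjusted p = 0.00108 and 0.0131). The 16 tested members with the NRF1 letters in their promoters and the 58 without them had medians of -0.06 and -0.09 for LDC in males, 0.11 and 0.12 for LDC in females, and -0.21 and -0.23 for the difference. For males against females their medians were both -0.02 in LDC mice, and 0.24 and 0.21 in control mice.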
